A study of Rattus norvegicus with 9 samples.

Results

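The 38 genes described here are the members of the 4 HOX clusters in the rat colon carcinoma line CC-531, taken as every row of the deposited gene table whose symbol is Hox followed by a cluster letter (a to d) and a paralog number. They are 38 of 34322 rows, 10 each in HoxA and HoxB and 9 each in HoxC and HoxD. At least 1 count was found for 36 of them, while Hoxd11 and Hoxd12 had none in any library. No member was removed for low values.

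HOX genes encode homeodomain transcription factors that tell cells where they lie along the head-to-tail axis. Within a cluster the genes stand in the order of their paralog numbers, with low numbers (anterior) used toward the head and high numbers (posterior) toward the tail, and the gut epithelium and its mesenchyme each keep such a pattern in the adult. Polycomb proteins keep unused HOX genes silent, trithorax proteins keep used ones active, retinoic acid switches on the anterior end, and CDX2, a transcription factor of the intestinal epithelium, acts on the central and posterior genes.

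The study set up a rat model of peritoneal metastasis of colorectal cancer and profiled the RNA of its tumor line in 3 forms, with 3 mRNA sequencing libraries each. Cells were CC-531, a single established line derived from WAG/Rij rats, grown in RPMI1640 medium with serum at passages p5, p8 and p11. Organoids were the same line grown in matrigel, at p7, p8 and p9. Ex vivo tumors 1, 2 and 3 were tumor tissue from the peritoneum of WAG/Rij rats. The rats had received CC-531 cells by intraperitoneal injection at 8 to 10 weeks of age. The labels give neither a passage nor an animal for each tumor. No treatment is named for any of the 9 libraries. The labels name passages but no independent cultures, so p-values measure the spread between these libraries, part of which may be technical.

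Total counts ranged from 12601774 to 24335921 per library. The 9 epithelial markers summed to 3658 to 7005 CPM (counts scaled to a common library size, scaled by the trimmed mean of M-values, TMM) in every library, and none of them was at 0 in any sample type. The 9 fibroblast markers summed to 4.27 to 15.9 CPM in the cultures, with Dcn, Lum and Dpt at 0 in all 6, and to 6004, 4252 and 9028 CPM in ex vivo tumors 1, 2 and 3. The 7 macrophage markers reached 2890, 3009 and 3626 CPM in the tumors against at most 5.69 CPM in the cultures. The tumor libraries thus held RNA with markers of cell types that the cultures lacked or nearly lacked. Organoid p7 stood apart from p8 and p9. Of 14437 genes with a mean of at least 1 CPM, 7.22% lay over 2-fold above the other organoid libraries there and 9.63% over 2-fold below, on log2(CPM + 0.5).

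Sequences are given for the members whose pattern was clearest and that RefSeq covers. The promoter windows of Hoxd8 and Hoxd9 are shown because neither gene had a count in any culture while both had counts in every tumor. That of Hoxa9 is shown because it supplied most of the counts of the posterior members in all 9 libraries. The members do not include the row of Hoxa10. Each window runs from 250 bases before to 50 after the annotated start on the gene's strand, from RefSeq on GRCr8, which is not the build of the counts. Hoxd8 lies at chr3:80014973-80015272 (+), Hoxd9 at chr3:80007756-80008055 (+) and Hoxa9 at chr4:82656999-82657298 (-). Capitals mark matches on either strand to TTTATNG (a core that CDX proteins bind), TATAAA (a box that lies before many start sites) or GGGCGG (a GC box).
Hoxd8: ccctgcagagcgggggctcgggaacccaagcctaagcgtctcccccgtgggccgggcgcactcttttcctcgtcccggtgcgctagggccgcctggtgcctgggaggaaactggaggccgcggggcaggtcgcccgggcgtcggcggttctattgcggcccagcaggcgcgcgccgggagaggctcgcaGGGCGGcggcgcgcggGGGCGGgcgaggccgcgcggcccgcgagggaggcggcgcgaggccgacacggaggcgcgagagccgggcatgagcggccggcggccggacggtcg
Hoxd9: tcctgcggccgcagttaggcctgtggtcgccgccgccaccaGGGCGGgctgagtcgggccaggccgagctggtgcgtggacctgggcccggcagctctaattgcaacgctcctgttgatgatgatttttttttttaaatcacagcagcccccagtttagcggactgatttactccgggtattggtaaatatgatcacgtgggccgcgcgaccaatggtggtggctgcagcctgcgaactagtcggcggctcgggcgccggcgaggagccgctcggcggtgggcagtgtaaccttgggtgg
Hoxa9: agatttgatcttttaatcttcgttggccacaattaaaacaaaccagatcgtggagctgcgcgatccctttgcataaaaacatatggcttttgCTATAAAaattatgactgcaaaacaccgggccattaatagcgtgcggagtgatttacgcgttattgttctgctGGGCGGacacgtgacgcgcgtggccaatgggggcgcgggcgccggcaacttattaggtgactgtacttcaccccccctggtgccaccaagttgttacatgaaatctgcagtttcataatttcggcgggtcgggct

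The Hoxd8 window held 2 GC boxes and 49 CpG dinucleotides, and the Hoxd9 window held 1 GC box and 27 CpG. The Hoxa9 window held 1 GC box, 21 CpG and 1 stretch that matches both TTTATNG and TATAAA, since the 2 matches overlap. The median window of all 33469 promoters held 7 CpG. TTTATNG occurred in 11.3% of all windows, TATAAA in 14.2% and GGGCGG in 33.1%. Among the 20 HOX symbols with a window, TTTATNG was found in Hoxa9 and Hoxa10, TATAAA in 3 and GGGCGG in 11. These are matches of letters and were not tested for binding.

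The clusters also carry microRNAs, of which the miR-196 family is known to pair with HOX messages. The mature sequences below belong to Mir196a of the HoxC cluster (chr7:135988900-135988921, +), Mir196b of the HoxA cluster (chr4:82661149-82661170, -) and Mir196c of the HoxB cluster (chr10:81727561-81727582, +), from RefSeq on GRCr8, and are shown because the table has a row for each. Capitals mark the seed, bases 2 to 8, which the 3 share.
rno-miR-196a-5p: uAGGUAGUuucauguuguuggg
rno-miR-196b-5p: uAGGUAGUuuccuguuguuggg
rno-miR-196c-5p: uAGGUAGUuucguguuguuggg

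The libraries were made from mRNA and do not measure the mature microRNAs, so the rows give only reads over the hairpin loci. The row of Mir196b held 0.21 to 1.48 CPM and that of Mir196c 0.28 to 1.48 CPM across the 9 libraries, while Mir196a had a count in ex vivo tumor 1 only, at 0.07 CPM. None of these rows passed the test in any comparison.

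HOX counts came mostly from HoxA and HoxB, then from HoxC, and the summed levels of the sample types overlapped. Summed over all 38 genes the level was 244 ± 4.92 CPM in cells, 226 ± 86.9 CPM in organoids and 242 ± 18.6 CPM in ex vivo tumors (mean ± SD, n = 3 each). Counts were found for 26 members in cells, for 26 in organoids and for 35 in tumors. No transcript lengths were used here, so levels of different genes are not ranked, and a share of counts depends on length too.

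**Figure D1:**
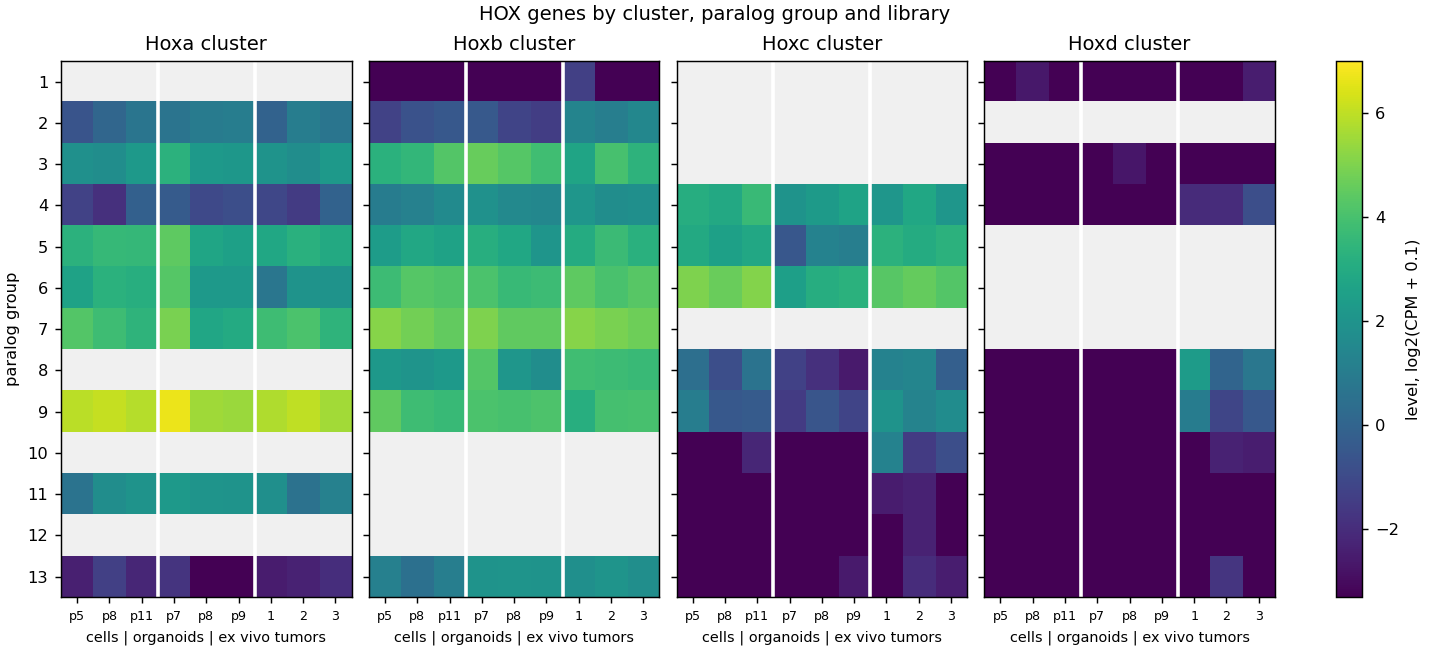
Level of the HOX genes as log2(CPM + 0.1) (color), by cluster (panels), paralog group (rows) and library (columns: cells p5, p8, p11, organoids p7, p8, p9, ex vivo tumors 1, 2, 3); pale gray marks paralog groups with no gene shown. Apart from Hoxa13 and Hoxb1, the genes shown of HoxA and HoxB and groups 4 to 9 of HoxC had counts in every library, and groups 4, 8 and 9 of HoxD showed only in the tumor columns.

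The clusters did not move together. HoxA summed to 104, 113 and 100 CPM in cells (p5, p8, p11), to 191, 75.2 and 73.4 CPM in organoids (p7, p8, p9), and to 86.3, 103 and 80.3 CPM in ex vivo tumors 1, 2 and 3. HoxB summed to 93.4, 86.8 and 88.0 CPM in cells, 125, 87.9 and 81.2 CPM in organoids and 104, 113 and 104 CPM in tumors. In both clusters organoid p7 was the highest of all 9 libraries. HoxC summed to 51.5, 38.9 and 55.7 CPM in cells, to 10.5, 16.4 and 18.4 CPM in organoids and to 42.2, 43.8 and 37.2 CPM in tumors, so that every organoid library lay below every other library. HoxD had 1 count in cells p8 and 1 in organoid p8, none in the other 4 cultures, and 7.01, 1.68 and 2.83 CPM in tumors 1, 2 and 3. As a share of all HOX counts HoxC made up 19.9% ± 3.36 in cells, 7.67% ± 3.93 in organoids and 17.0% ± 0.53 in tumors.

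**Figure D2:**
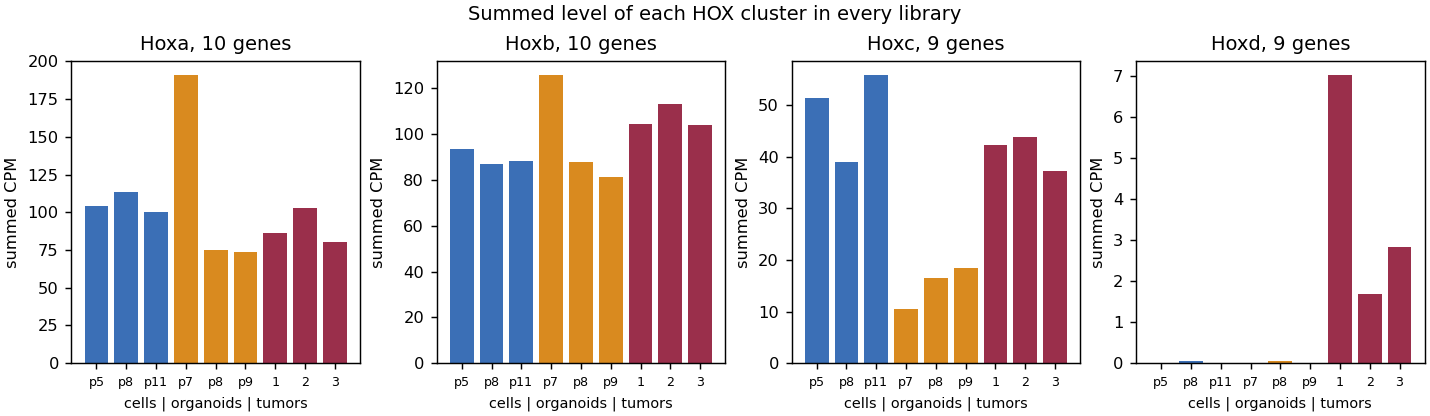
Summed CPM (TMM-scaled) of the genes of each cluster in every library (bars; blue cells, orange organoids, red ex vivo tumors). HoxC was lowest in the 3 organoid libraries (10.5 to 18.4 CPM), HoxD was near 0 in all 6 cultures, and organoid p7 had the highest HoxA and HoxB sums.

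By position along the clusters, the paralog groups 9 to 13 took 35.8%, 36.6% and 31.5% of HOX counts in cells (p5, p8, p11), 39.1%, 39.1% and 40.3% in organoids (p7, p8, p9), and 32.8%, 34.1% and 32.9% in ex vivo tumors 1, 2 and 3. The organoid libraries lay above all the others. Groups 4 to 8 took 47.7% ± 1.79 in organoids, against 57.1% ± 0.96 in cells and 58.6% ± 2.31 in tumors, and groups 1 to 3 took 12.8% ± 1.89, 8.26% ± 2.29 and 8.10% ± 1.77 in the same order. Most of the posterior share was Hoxa9, which alone took 25.7% ± 2.65 of HOX counts in cells, 27.4% ± 3.35 in organoids and 23.0% ± 1.77 in tumors. Without group 9 the posterior share was 2.00%, 3.85% and 3.03%. Shares are tied to each other and to HoxC, whose counts were low in organoids, and are given as a description. The symbol Hoxa10 names no row, but the row LOC100911668 carries the RefSeq gene identifier of Hoxa10 and was left out by the rule. It held 52.3, 52.1 and 32.4 CPM in cells, 86.1, 27.8 and 27.1 CPM in organoids and 34.1, 50.2 and 39.0 CPM in tumors, with organoid p7 again the highest. With it the posterior share was 44.8% ± 4.60 in cells, 49.1% ± 2.40 in organoids and 42.9% ± 1.81 in tumors, and the organoids no longer stood apart, cells p8 (48.0%) being above organoid p8 (47.2%).

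The first comparison asks how the HOX genes differ between the line as organoids and as cells. No member rose and 3 fell, Hoxc5, Hoxc6 and Hoxc8, all central genes of HoxC, in edgeR's quasi-likelihood test at an adjusted p under 0.05, and among all 27324 genes tested 4.82% rose and 2.91% fell. At an unadjusted p under 0.05 in the same test, 2 members were higher (Hoxb8 and Hoxb13) and 6 lower. No share of all genes was taken at that threshold, so these counts have no background beside them. DESeq2 called 1 rise (Hoxb13), where it called 7.73% of all genes tested as higher and 5.59% as lower. Limma-voom with library weights called 2 rises (Hoxa2 and Hoxb13), where it called 15.3% of all genes as higher and 12.5% as lower. The median log2 fold change of the 24 members with more than 3 counts in either type was 0.05. Without that limit it was 0 for the 36 members tested and 0 for all genes tested.

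Hoxc6, which in the mouse patterns the thoracic region, had 32.0, 24.7 and 33.6 CPM in cells (p5, p8, p11), 5.57, 8.55 and 9.56 CPM in organoids (p7, p8, p9) and 19.8, 23.3 and 18.8 CPM in ex vivo tumors 1, 2 and 3. The 3 sample types did not overlap, with cells highest and organoids lowest. It fell by 1.93 on the log2 scale in organoids against cells (SE 0.31, adjusted p = 3.42e-05). Hoxc5, a neighbor on the anterior side, had 7.68, 5.65 and 7.17 CPM in cells, 0.59, 2.28 and 2.04 CPM in organoids and 9.80, 8.05 and 9.78 CPM in tumors. Again all organoid libraries were below all others, and Hoxc5 fell by 2.07 on the log2 scale (SE 0.45, adjusted p = 0.0021). Both calls held under all 18 alternatives. In RefSeq the spans of Hoxc4, Hoxc5 and Hoxc6 overlap, and no source used here says whether the counting was stranded, so reads of the 3 genes may have been shared or dropped.

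Hoxc8, a thoracic and brachial gene in the mouse, was counted 28, 8 and 25 times in cells (p5, p8, p11) (1.26, 0.45 and 1.42 CPM), 6, 3 and 1 times in organoids (0.30, 0.17 and 0.07 CPM) and 32, 51 and 10 times in tumors (2.29, 2.52 and 0.76 CPM). The organoid libraries lay below all others here too. It fell by 2.48 on the log2 scale in organoids (SE 0.75, adjusted p = 0.034), and the call was lost without cells p5 (adjusted p = 0.15), cells p11 (0.096), organoid p8 (0.089) or organoid p9 (0.15). It was also lost with filterByExpr (0.051), with the filter at 10 counts (0.066) and with quantile normalization (0.10), and the filter at a mean log2 of 4 removed the gene. The 2 remaining genes of this stretch did not pass. Hoxc4, which stands at the anterior end of HoxC, had 8.58, 7.46 and 12.7 CPM in cells, 3.80, 4.89 and 6.33 CPM in organoids and 4.22, 7.02 and 4.20 CPM in tumors, and its log2 fold change in organoids against cells was -0.94 (SE 0.40, adjusted p = 0.17). Hoxc9, a thoracic gene on the posterior side, had 1.98, 0.62 and 0.68 CPM in cells, 0.25, 0.56 and 0.33 CPM in organoids and 3.79, 2.32 and 3.13 CPM in tumors, with -1.53 (SE 0.64, adjusted p = 0.16). In both genes the organoid libraries all lay below the cells. Without organoid p7 the log2 fold changes were -1.74 for Hoxc6 (adjusted p = 4.44e-06), -1.66 for Hoxc5 (0.0026) and -3.06 for Hoxc8 (0.0072).

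**Figure D3:**
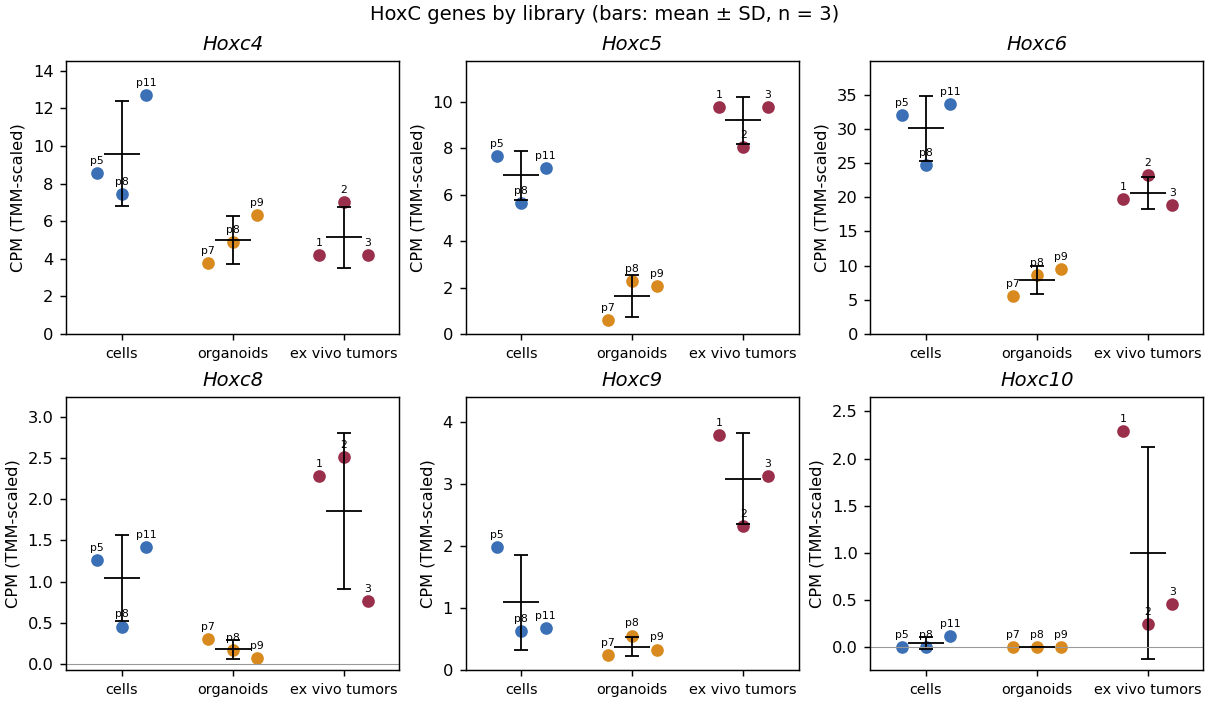
CPM (TMM-scaled) of 6 HoxC genes in each library (points, labelled by passage or tumor number), with the mean ± SD of each sample type (black, n = 3). Hoxc5, Hoxc6 and Hoxc8 were lowest in the organoids, and Hoxc10 had counts in every tumor but in only 1 culture, cells p11.

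Organoid p7 set the HoxA picture in organoids. Of the 22 members with a mean of at least 1 CPM, 6 lay over 2-fold above the other 2 organoid libraries there. They were Hoxa3, Hoxa5, Hoxa6, Hoxa7, Hoxa9 and, from HoxB, Hoxb8. A single member, Hoxc5, lay over 2-fold below. Of all genes with such a mean, 7.22% lay above and 9.63% below. Hoxa5, which patterns the lung and the gut in the mouse, had 9.88, 11.9 and 11.5 CPM in cells, 21.6, 6.55 and 5.67 CPM in organoids (p7, p8, p9) and 6.94, 9.29 and 7.57 CPM in tumors. Hoxa7 had 18.5, 14.0 and 10.3 CPM in cells, 30.4, 6.72 and 7.85 CPM in organoids and 13.7, 16.8 and 10.4 CPM in tumors. So p7 was above, and p8 and p9 below, every cell library. Hoxa9, known for its part in myeloid leukemia, had 61.3, 68.6 and 57.8 CPM in cells, 102, 45.8 and 44.1 CPM in organoids and 54.9, 64.9 and 47.8 CPM in tumors. Hoxa3, needed for the thymus and parathyroid in the mouse, had 3.55, 3.28 and 4.61 CPM, 9.76, 4.55 and 4.35 CPM and 3.79, 3.26 and 4.51 CPM in the same order. None of Hoxa3, Hoxa5, Hoxa7 and Hoxa9 passed the test with all libraries, their log2 fold changes in organoids against cells being 0.71, 0.03, 0.07 and 0.04. Without p7, Hoxa7 fell by 0.98 (adjusted p = 0.039), and the value of Hoxa5 became -0.87 (adjusted p = 0.11) and that of Hoxa9 became -0.48 (adjusted p = 0.23). Hoxa3, Hoxa4, Hoxa5 and Hoxa6 lie in overlapping spans in RefSeq. Cdx2, whose protein acts on central and posterior HOX genes, was highest in organoid p7 too. It had 39.9, 46.5 and 50.2 CPM in cells, 137, 38.4 and 44.8 CPM in organoids (p7, p8, p9) and 38.6, 35.9 and 33.3 CPM in tumors. Of these 6 members, Hoxb8 (14.0, 13.2 and 12.6 CPM in tumors 1, 2 and 3) kept the order of Cdx2 among the tumors. Hoxa3, Hoxa5, Hoxa6, Hoxa7 and Hoxa9 did not, and none of the 6 kept it among the cells. The part of Cdx2 in these values was not tested.

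The other comparisons ask how the HOX genes differ in ex vivo tumors, against cells and against organoids. Both use the same 3 tumor libraries. Against cells 6 members rose (Hoxb2, Hoxb8, Hoxc10, Hoxd4, Hoxd8 and Hoxd9) and 1 fell (Hoxa6), where 15.6% of all genes tested rose and 5.57% fell. Against organoids 8 rose (Hoxb2, Hoxc5, Hoxc6, Hoxc8, Hoxc9, Hoxc10, Hoxd8 and Hoxd9) and Hoxa6 fell, where 14.7% of all genes rose and 7.43% fell. Taken over the 31 members that had more than 3 counts in a type compared, the median log2 fold change was 0.43 against cells and 0.55 against organoids, with 6 members at their lower bound in each. The median of all genes tested, taken without such a limit or bound, was 0.31 and 0.27. On that basis the 36 members tested gave 0.48 and 0.62. These medians of all genes depend on the scaling, being 0.41 and 0.39 with total counts alone and -0.09 and -0.07 with quantile normalization, where 2 members rose and 5 fell against cells and 5 rose and 6 fell against organoids. Of all 27324 genes, quantile normalization called 3003 as higher and 3465 (12.7%) as lower against cells and 3065 (11.2%) and 3592 (13.1%) against organoids. With total counts alone 7 rose and none fell against cells. The members called in the TMM fit kept their direction under every alternative that kept the gene. In bulk samples such as these tumors, fewer cells of a type and less RNA per cell cannot be told apart.

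The HoxD genes were the clearest. Hoxd8, a central gene used in the trunk, gut mesoderm and kidney of the mouse, was counted 69, 18 and 21 times in ex vivo tumors 1, 2 and 3 (4.94, 0.89 and 1.61 CPM) and not once in the 6 cultures. Its level in tumors was at least 43.8-fold higher than in cells and at least 40.7-fold higher than in organoids, taking 3 counts over a type as the floor. Such bounds, here and below, take the pooled tumor counts as they are, without their counting error or the spread between tumors. The adjusted p was 3.67e-06 against cells and 4.69e-06 against organoids. Hoxd9, the next gene on the posterior side and known for its role in the limb, was counted 27, 7 and 8 times in the tumors (1.93, 0.35 and 0.61 CPM) and not in the cultures, at least 17.0-fold higher than in cells (adjusted p = 0.000421) and at least 15.8-fold higher than in organoids (adjusted p = 0.000505). For both genes tumor 1 was the highest of the 3. Without tumor 1 both calls held in both comparisons, with adjusted p of 0.016 and 0.018 for Hoxd9, while the bounds became 22.4-fold and 20.9-fold for Hoxd8 and 8.63-fold and 8.02-fold for Hoxd9, against cells and organoids. A count of 0 over the 3 libraries allows a level of up to 0.052 CPM in cells and 0.056 CPM in organoids.

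Hoxd4, a gene of the hindbrain and neck in the mouse, was counted only 2, 3 and 6 times in tumors 1, 2 and 3 and not in the cultures, at least 4.46-fold higher than in cells (adjusted p = 0.048) and at least 4.14-fold higher than in organoids (adjusted p = 0.052). Its call against cells was lost without any 1 of the 3 cell or the 3 tumor libraries (adjusted p of 0.053 to 0.20). Of the other 6 HoxD genes, Hoxd1, Hoxd3, Hoxd10 and Hoxd13 had 4 counts or fewer over all 9 libraries, and Hoxd11 and Hoxd12 had none. So the HoxD signal in the tumors came from groups 4, 8 and 9. Hoxc10, a lumbar and hindlimb gene, had a like pattern. It was counted 32, 5 and 6 times in tumors 1, 2 and 3 (2.29, 0.25 and 0.46 CPM), 2 times in cells p11 and not in the other cultures. The ratio to cells was 26.2, with an exact 95% counting interval of 6.81 to 223 (counting error only), and the level was at least 16.2-fold higher than in organoids, with adjusted p of 0.0044 and 0.00064. Without tumor 1 the call against cells was lost (adjusted p = 0.23), as it was without cells p5 (0.055).

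Like these genes, the fibroblast and macrophage sums were higher in every tumor than in any culture. Of the members that rose against cells, Hoxb8, Hoxc10, Hoxd8 and Hoxd9 were highest in tumor 1. Hoxb2 (2.43, 2.03 and 2.68 CPM in tumors 1, 2 and 3) and Hoxd4 (0.14, 0.15 and 0.46 CPM) were highest in tumor 3. The fibroblast sum (9028 CPM) and the macrophage sum (3626 CPM) were highest in tumor 3 too. Single genes of these lists differed. Dcn (108, 60.5 and 93.3 CPM in tumors 1, 2 and 3), Lum, Thy1, Dpt, C1qa (373, 203 and 267 CPM), C1qb and Cd163 were highest in tumor 1. Col1a1, Col1a2 (1335, 994 and 2277 CPM), Col3a1, Pdgfra, Pdgfrb, Csf1r, Adgre1 and Lyz2 were highest in tumor 3, and Cd68 in tumor 2. The endothelial sum was 241, 158 and 266 CPM in tumors 1, 2 and 3. Pericytes and smooth muscle summed to 365, 312 and 587 CPM. All remaining lists had their highest sum in tumor 1. The sums were 369, 15.2 and 19.1 CPM for adipocytes and 426, 22.6 and 64.6 CPM for B and plasma cells. T and NK cells had 119, 29.9 and 43.6 CPM and erythroid cells 983, 165 and 268 CPM. Skeletal muscle had 3.79, 3.46 and 2.98 CPM and kidney 0.36, 0 and 0.15 CPM. The mesothelial sum was 460, 363 and 395 CPM and the epithelial sum 7005, 4880 and 4801 CPM. The part of these cells in the HOX values was not tested.

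**Figure D4:**
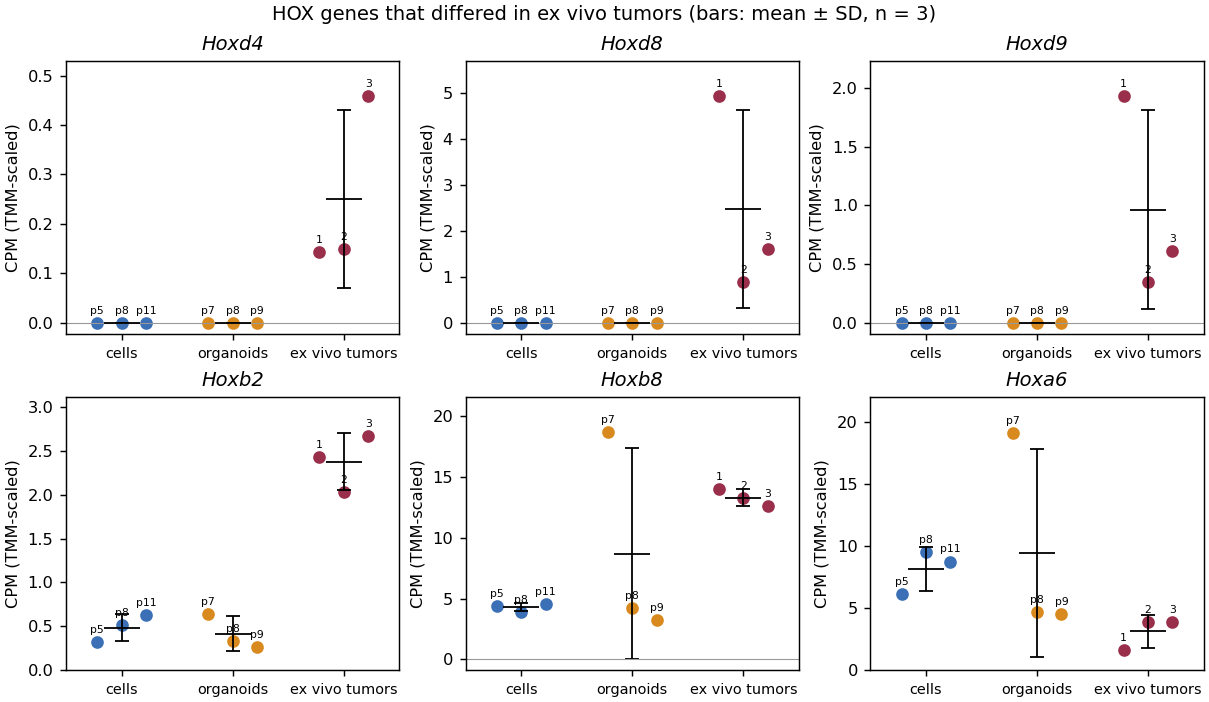
CPM (TMM-scaled) of 6 HOX genes that were called in ex vivo tumors against cells, in each library (points, labelled by passage or tumor number), with the mean ± SD of each sample type (black, n = 3). Hoxd4, Hoxd8 and Hoxd9 were at 0 in all 6 cultures, Hoxb2 was 2.03 to 2.68 CPM in the tumors, and organoid p7 was the highest library for Hoxb8 and Hoxa6.

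In HoxB the 2 genes that rose in tumors were Hoxb2 and Hoxb8. Hoxb2, an anterior gene known from the hindbrain, had 0.31, 0.51 and 0.63 CPM in cells, 0.64, 0.33 and 0.26 CPM in organoids and 2.43, 2.03 and 2.68 CPM in tumors. Every tumor was above every culture, and it rose by 2.29 on the log2 scale against cells (SE 0.64, adjusted p = 0.0072) and by 2.48 against organoids (SE 0.65, adjusted p = 0.0038). Hoxb8, used in the trunk and in blood progenitors of the mouse, had 4.40, 3.90 and 4.55 CPM in cells, 18.7, 4.22 and 3.23 CPM in organoids (p7, p8, p9) and 14.0, 13.2 and 12.6 CPM in tumors. It rose by 1.63 against cells (SE 0.45, adjusted p = 0.0066), a call lost without cells p5 (adjusted p = 0.055). Against organoids its value was 0.60 (SE 0.44, adjusted p = 0.36), with p7 above all 3 tumors, and without p7 it was 1.83 (adjusted p = 0.00013). With quantile normalization the adjusted p against cells was 0.39 for Hoxb2 and 0.26 for Hoxb8.

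Hoxa6, a thoracic gene in the mouse, was the single member that fell. It had 6.11, 9.50 and 8.76 CPM in cells, 19.1, 4.67 and 4.55 CPM in organoids and 1.57, 3.85 and 3.90 CPM in tumors, so that every tumor was below every culture. It fell by 1.38 on the log2 scale against cells (SE 0.48, adjusted p = 0.034) and by 1.60 against organoids (SE 0.48, adjusted p = 0.012). Neither call was firm. Against cells it was lost under each of the 3 filters on low values, with adjusted p of 0.13, 0.10 and 0.098, in DESeq2 (0.052) and without cells p5, p8 or p11 or tumor 1 (0.059 to 0.10). Against organoids it was lost without organoid p7 (log2 fold change -0.57, adjusted p = 0.37).

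The central and posterior HoxC genes that were low in organoids were higher in tumors than in organoids. Hoxc5 rose by 2.50 (SE 0.46, adjusted p = 5.33e-05), Hoxc6 by 1.39 (SE 0.30, adjusted p = 0.000604), Hoxc8 by 3.31 (SE 0.75, adjusted p = 0.00094) and Hoxc9 by 3.01 (SE 0.65, adjusted p = 0.000499) on the log2 scale. Against cells the same genes gave 0.43 (SE 0.42), -0.54 (SE 0.30), 0.83 (SE 0.65) and 1.47 (SE 0.59), and none of these passed, with adjusted p of 0.52, 0.21, 0.39 and 0.075. Hoxc9 did pass against cells without cells p5 (2.23, adjusted p = 0.023) or without organoid p7 (1.47, adjusted p = 0.031), and under 4 more alternatives, the filter at a mean log2 of 4 (adjusted p = 0.049), total counts (0.04998), limma-voom (0.016) and the 6 libraries alone (0.043). Hoxc4 differed from its neighbors, at 5.15 ± 1.62 CPM in tumors and 5.00 ± 1.27 CPM in organoids (log2 fold change 0.05, SE 0.40, adjusted p = 0.97), against 9.59 ± 2.78 CPM in cells. In tumors against cells it was called as lower without organoid p7 (-0.90, adjusted p = 0.048).

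**Figure D5:**
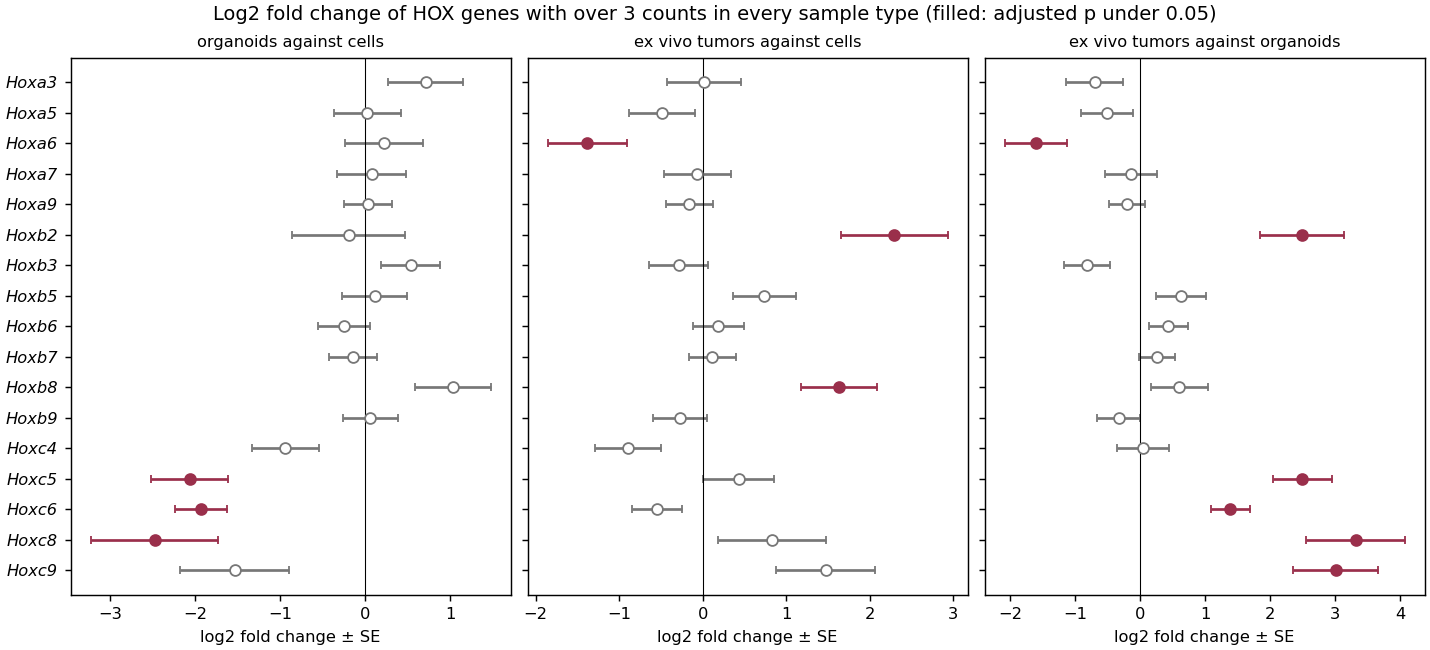
Log2 fold change ± SE (edgeR) of the 17 members described in every library that had over 3 counts in each sample type, for the 3 comparisons; filled red points passed an adjusted p of 0.05. In organoids against cells the called genes were Hoxc5, Hoxc6 and Hoxc8, and in both tumor comparisons Hoxb2 was called as higher and Hoxa6 as lower.

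The 5 HoxB genes Hoxb3, Hoxb5, Hoxb6, Hoxb7 and Hoxb9 did not pass edgeR's test in any comparison. Hoxb7, a trunk gene often high in human carcinomas, had 34.4, 27.5 and 22.7 CPM in cells, 32.1, 22.2 and 22.4 CPM in organoids and 34.9, 30.3 and 26.5 CPM in tumors. Hoxb6 had 13.4, 19.3 and 18.0 CPM, 17.0, 12.3 and 13.4 CPM and 21.8, 16.2 and 19.9 CPM in the same order. In both the sample types overlapped. Hoxb9, the posterior neighbor, had 22.2, 13.6 and 12.2 CPM in cells, 16.7, 15.8 and 17.5 CPM in organoids and 8.66, 15.3 and 15.8 CPM in tumors. Hoxb3, an anterior gene of hindbrain and thyroid, had 9.52, 11.4 and 18.9 CPM, 24.3, 19.3 and 14.0 CPM and 6.51, 15.9 and 10.1 CPM. Its value in tumors against organoids was -0.82 (SE 0.35, adjusted p = 0.097), and it was called there without tumor 2 (-1.21, adjusted p = 0.028) and with quantile normalization (-1.45, adjusted p = 0.044). Hoxb5, which acts in the enteric neural crest, had 5.12, 7.12 and 6.03 CPM in cells, 4.02 to 8.68 CPM in organoids and 8.16, 12.9 and 9.40 CPM in tumors. All tumors lay above all cells, but the log2 fold change of 0.74 (SE 0.38) had an adjusted p of 0.18.

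The remaining 17 members stayed below 5 CPM on average in every sample type and did not pass edgeR's test in any comparison. Hoxb13, the posterior end of HoxB and a hindgut and prostate gene, had 1.83 ± 0.47 CPM in cells, 3.89 ± 0.06 CPM in organoids and 3.54 ± 0.32 CPM in tumors, with log2 fold changes of 1.08 (adjusted p = 0.19) in organoids and 0.95 (adjusted p = 0.16) in tumors against cells. The rise in tumors was called with the filter at a mean log2 of 4 (adjusted p = 0.048), in DESeq2 (0.04) and in limma-voom (0.036), and that in organoids in DESeq2 (0.035) and limma-voom (0.0047). All cell libraries lay below all others. Hoxa11 had 2.84 ± 1.26, 4.14 ± 0.35 and 2.35 ± 1.03 CPM and Hoxb4 2.36 ± 0.53, 3.02 ± 0.51 and 3.60 ± 0.49 CPM in cells, organoids and tumors. Hoxa13, a marker of the hindgut and digits, had at most 0.28 CPM in a library, and organoids p8 and p9 had no count. Hoxa2 and Hoxa4 ranged from 0.17 to 1.98 CPM. Hoxb1 was counted 4 times, all in tumor 1, and Hoxc11, Hoxc12 and Hoxc13 had at most 3 counts in any library.

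The proteins that act on or with HOX genes were compared by lists, to be read beside the shares of all genes that rose and fell, 4.82% and 2.91% in organoids against cells, 15.6% and 5.57% in tumors against cells and 14.7% and 7.43% in tumors against organoids. Of 9 TALE cofactors, which bind DNA with HOX proteins, 1 was called. Pknox2 had 0 to 0.06 CPM in the cultures and 2.65, 2.42 and 4.66 CPM in tumors 1, 2 and 3, and rose against cells (adjusted p = 4.97e-07) and organoids (adjusted p = 6.8e-07). The median of this list was -0.15 in tumors against cells, beside 0.31 for all genes. Of 9 ParaHox and neighboring genes, Cdx2 fell in tumors against organoids by 1.03 (adjusted p = 0.017), where organoid p7 held its highest level. Of 15 Polycomb genes, 2 fell in tumors against cells, Suz12 by 0.99 (adjusted p = 0.00596) and Ezh2 by 0.81 (adjusted p = 0.013). Jarid2 rose by 1.08 in organoids against cells (adjusted p = 0.0064) and fell by 0.74 in tumors against organoids (adjusted p = 0.037). Of 10 trithorax and demethylase genes, 3 rose and 1 fell in organoids against cells. The rises were the H3K27 demethylases Kdm6a (1.01, adjusted p = 0.022) and Kdm6b (0.97, adjusted p = 0.0196) and the methyltransferase Dot1l (0.95, adjusted p = 0.024). Kdm6a had 67.4, 136 and 152 CPM in organoids (p7, p8, p9) against 54.5 to 63.2 CPM in cells, and Kdm6b 169, 287 and 250 CPM against 86.3 to 154 CPM, so p7 lay nearest to the cells in both. These 3 and Kmt2b fell in tumors against organoids by 1.17, 1.08, 0.88 and 0.70.

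Of 12 retinoic acid genes, 1 rose and 3 fell in organoids against cells, 5 rose and 1 fell in tumors against cells, and 5 rose in tumors against organoids. Aldh1a1, which makes retinoic acid, had 0 to 0.06 CPM in cells, 6.21, 0.78 and 0.86 CPM in organoids (p7, p8, p9) and 17.2, 33.4 and 31.0 CPM in tumors. Aldh1a2 had a count in only 1 culture, organoid p9, and 3.65, 5.88 and 4.74 CPM in tumors. Crabp2, a binding protein of retinoic acid, fell by 2.33 in organoids against cells (adjusted p = 5.72e-05), and Rara, a receptor, rose by 0.77 in tumors against cells (adjusted p = 0.038).

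Of 10 positional factors of gut epithelium, 2 rose in organoids against cells and 4 in tumors against cells, while 3 rose and 3 fell in tumors against organoids. Hnf4a rose by 2.39 in organoids against cells (adjusted p = 1.25e-05), and averaged 8.61, 45.4 and 23.6 CPM in cells, organoids and tumors. Foxa2 had no count in cells, 1.04, 0.17 and 0.26 CPM in organoids and 6.51, 17.4 and 11.3 CPM in tumors. Of 18 positional factors of mesenchyme, 0 rose and 2 fell in organoids against cells, 9 rose and 1 fell in tumors against cells, and 10 rose in tumors against organoids. Osr1 and Meox1 had no count in the cultures and 2.96 to 6.08 and 2.62 to 4.13 CPM in tumors. Wt1 had a count in cells p5 alone among the cultures and 4.84 to 10.7 CPM in tumors. Nkx2-3, the single fall in tumors against cells and 1 of the 2 falls in organoids against cells, averaged 8.01 CPM in cells, 1.10 CPM in organoids and 1.62 CPM in tumors.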

How the data were processed

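The mRNA of the CC-531 line was sequenced as cells, organoids and ex vivo tumors in 9 libraries, 3 per sample type, with 12601774 to 24335921 counts each. From the submitters' processing notes and the methods, read quality was checked by the authors (FastQC 0.11.9, MultiQC 1.9), Cutadapt 1.18 was used for trimming and STAR 2.7.4 for alignment to mRatBN7.2. The deposited table holds whole-number counts per gene, not normalized, its annotation and strand setting being not given in the sources used here.

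Every gene with a count (27324, of them 36 members) entered 1 fit in edgeR 4.0.16 (R 4.3.3) with TMM scaling over the 3 sample types (6 residual degrees of freedom) and the two-sided quasi-likelihood test. Genes were called at a Benjamini-Hochberg adjusted p under 0.05 over all genes of the fit. The standard error (SE) was obtained as the absolute log2 fold change over the root of the F statistic. A fold against a type at 0 was taken against 3 counts over the type, without the counting error or spread of the higher type. The 18 alternatives comprised filters, scalings, limma 3.58.1, DESeq2 1.42.0, fits of 6 libraries and leaving out each library in turn. The procedure was tested on simulated counts. Members called in any comparison, or with a mean of at least 5 CPM in a type, are given in every library and the others mostly by range. At most 4 called genes per list are named, those of the highest mean CPM. The members and lists were chosen with earlier results of these data known. All 38 members matched a RefSeq symbol (GRCr8), used for names, neighbors and sequences. The values of 1 member and of some list genes are not reported here, though they entered the fit, the sums and the counts.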

Additional observations from a re-analysis of the deposited data

How the results depend on the processing

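Of 1103 log2 fold changes of members recomputed under the 18 alternatives, 993 kept their sign and their side of the threshold, 47 changed sign but were called under neither setting, 40 were no longer called, 19 became called and 4 changed sign and were called only under the alternative. No called fold change turned. The 4 were Hoxa5 in organoids against cells with limma-voom and library weights (-0.77), Hoxa7 without organoid p7 (-0.98 in organoids against cells and 0.90 in tumors against organoids, the values over all left-out libraries running from -0.98 to 0.43 and from -0.49 to 0.90) and Hoxa3 in tumors against cells with quantile normalization (-1.27). Rises in organoids against cells went from 0 to 1 in DESeq2 (7.73% of all genes tested rose there) and 2 in limma-voom (15.3%). Falls went from 3 to 6 in limma-voom (12.5% of all genes fell there). Falls went from 3 to 2 with each of the 3 filters and with quantile normalization, Hoxc8 being lost. Of all genes tested, 4.29% (mean log2 of 4), 4.02% (filterByExpr), 2.5% (10 counts) and 1.6% (quantile) fell there, beside 2.91% in the main fit. Rises in tumors against cells went from 6 to 3 with the filter at a mean log2 of 4, 3 with filterByExpr and 2 with quantile normalization. Of the 3 under the first filter 1 (Hoxb8) was among the 6, the others being Hoxb13 and Hoxc9. Falls in tumors against cells went from 1 to 0 with each of the 3 filters, with total counts, in DESeq2 and in limma-voom, and to 5 with quantile normalization. Of all genes tested, 4.16% to 8.33% fell under the settings without a fall and 12.7% with quantile normalization, beside 5.57% in the main fit. Rises in tumors against organoids went from 8 to 3 with the filter at a mean log2 of 4 and 5 with quantile normalization. The shares of all genes tested were 12.2% and 11.2%, beside 14.7% in the main fit. Falls in tumors against organoids went from 1 to 0 with each filter, in limma-voom and with 6 libraries, and to 6 with quantile normalization. Of all genes tested, 5.98% to 10.9% fell under the settings without a fall and 13.1% with quantile normalization, beside 7.43% in the main fit. Filters remove low members, leaving 20 at a mean log2 of 4 and 24 with filterByExpr. Other causes were not tested.

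Leaving out 1 library at a time gave 0 to 1 rises and 2 to 4 falls in organoids against cells, 4 to 7 and 0 to 2 in tumors against cells and 8 to 10 and 0 to 2 in tumors against organoids. Of all genes tested, 2.23% to 7.73% rose and 1.2% to 6.8% fell in organoids against cells in these fits. The shares were 12.2% to 17.9% and 3.2% to 8.82% in tumors against cells, and 12.5% to 17.4% and 5.5% to 10.2% in tumors against organoids. The posterior share ranged from 33.6% to 36.2% (cells), 39.1% to 39.7% (organoids) and 32.8% to 33.5% (tumors). With the members of groups 10 to 13 alone, which do not include the row of Hoxa10, it was 2.00%, 3.85% and 3.03%. The cluster sums, whose alternatives were chosen after seeing the data, ranged for HoxA from 102 to 109 CPM (cells), 74.3 to 133 CPM (organoids) and 83.3 to 94.5 CPM (tumors), for HoxB from 87.4 to 90.7, 84.5 to 107 and 104 to 109 CPM, for HoxC from 45.2 to 53.6, 13.5 to 17.4 and 39.7 to 43.0 CPM, and for HoxD from 0 to 0.028, 0 to 0.028 and 2.25 to 4.92 CPM. The bounds for Hoxd8 and Hoxd9 without tumor 1 were likewise added after seeing the data. With total counts alone HoxB was 113 CPM in tumors. The per-length share was not run because no transcript lengths were used here. No paired analysis was possible because the sample types share fewer than 2 passage numbers and the tumors have none.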

Other observations

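Genes that flank the clusters in RefSeq were looked at after the members' values were seen. Skap1, which lies beside the anterior end of HoxB, had 21.2, 15.0 and 16.3 CPM in cells (p5, p8, p11), 10.7, 5.44 and 7.58 CPM in organoids (p7, p8, p9) and 52.6, 35.7 and 38.2 CPM in ex vivo tumors 1, 2 and 3. The sample types did not overlap, and in edgeR's test it fell by 1.14 on the log2 scale in organoids against cells (adjusted p = 0.0143) and rose by 1.27 in tumors against cells (adjusted p = 0.0016) and by 2.41 in tumors against organoids (adjusted p = 1.8e-07). Skap2 (HoxA), Ttll6 (HoxB), Smug1 (HoxC) and Mtx2 (HoxD) passed no test. Mtx2 had 38.2 to 54.2 CPM in all 9 libraries, while the HoxD genes had 1 count in cells p8, 1 in organoid p8 and none in the other cultures. Among noncoding rows of the clusters, Hoxb5os had 1.72 to 4.39 CPM, Hoxa11-as 0.31 to 2.51 CPM and Hotairm1 0.36 to 1.52 CPM across the libraries, and none of these 3 passed a test.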
